A study of Gossypium herbaceum with 12 samples.

Results

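Leaves of Vagad, the Gossypium herbaceum accession that the labels class as drought tolerant, were compared between drought and irrigated plants on 6 of the 12 Affymetrix Cotton Genome arrays of the study, chosen by their titles. The drought group held 3 plants that were watered only every other week to keep the soil dry, and the irrigated group held 3 plants watered daily. Drought was applied to month-old potted plants in a greenhouse, and each array carried leaf RNA of 1 plant. The other 6 arrays held leaves of RAHS-14, the accession classed as sensitive, from 3 drought plants and 3 irrigated plants, and they served for the spread between plants and for comparison. The 2 accessions differ across their whole genetic background, so a difference between them cannot be assigned to a gene. The probes of the array carry the names of other cotton species, so that a probe set may bind the herbaceum transcript poorly, and a probe set with the suffix _s_at or _x_at may bind several related transcripts. The values are MAS5 signals, a brightness summarised over the probes of each probe set, and they were normalized between arrays and are given on the log2 scale. A step of 1 on this scale is a doubling, and levels of different probe sets cannot be set against each other. In bulk leaf RNA, fewer cells of a type and less RNA per cell cannot be told apart.

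When soil water falls short, a leaf closes its stomata under the hormone abscisic acid, builds up small solutes such as proline, sugars and raffinose-type oligosaccharides that hold water in the cell, and makes chaperones and dehydration proteins that keep other proteins and membranes intact. Growth, which depends on wall loosening and on water channels of the plasma membrane and the tonoplast, is slowed. Ethylene, jasmonate and the pathogenesis-related proteins belong to defence pathways that interact with those of water shortage.

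The arrays of drought plants 1 and 2 stood apart from every other array, and each result below is therefore given with drought plant 3 shown apart. The 17 tag controls, which match nothing in cotton, had a median signal of 89.0 on drought plant 1 and 96.7 on plant 2, of 2.86 on drought plant 3, and of 1.36 to 7.43 over the 10 arrays other than plants 1 and 2. Taken over probe sets, which cannot count as replicates, the median rank correlation with those 10 arrays was 0.596 for plant 1 and 0.441 for plant 2, while the 10 arrays correlated at 0.937 to 0.971 among themselves. Plants 1 and 2 correlated with each other at 0.416. Drought plant 3 correlated with the irrigated plants at 0.940 to 0.942, against 0.956 to 0.966 among the irrigated plants. The log2 ratio of 3′ to 5′ signal of 6 pairs of control probe sets was 0.395, -1.09 and 2.30 on drought plants 1, 2 and 3, and 1.76 to 2.30 on the 9 arrays outside that group. The median SD between plants, taken over the tested probe sets, was 1.62 among the drought plants and 0.148 among the irrigated plants, on the log2 scale. The part of these array properties in the levels of plants 1 and 2 was not tested.

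**Figure D1:**
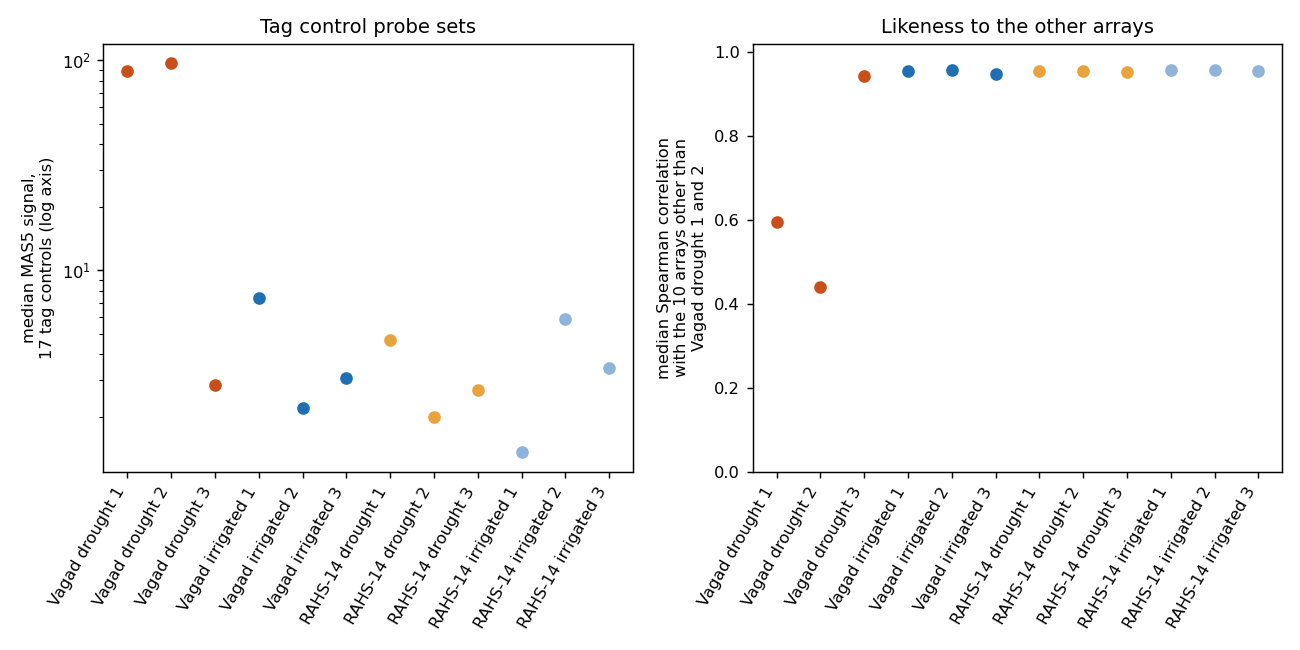
Each point is 1 array. The left panel plots the median signal of the 17 tag controls on a log axis, and the right panel the median Spearman correlation with the 10 arrays other than Vagad drought 1 and 2. Vagad drought plants 1 and 2 lie at 89.0 and 96.7 and at 0.596 and 0.441, while Vagad drought plant 3 lies among the other arrays in the left panel and, at 0.944, just below their 0.948 to 0.957 in the right panel.

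The leaf markers gave little to check the label with, since only 3 of 9 listed probe sets were bright enough to be tested. All 9 summed to 4210, 3595 and 2455 in drought plants 1, 2 and 3, against 2196, 1834 and 2042 in irrigated plants. In plant 2 the sum came mostly from 2 probe sets too dim to be tested, for chlorophyll binding (11.03) and a phosphoribulokinase (10.28). The 3 tested markers were at 4.29, 7.48 and 3.37 in plant 2, each below all 3 irrigated plants. The probe sets for chlorophyll binding and a thylakoid lumenal protein lay at or near the floor on most arrays, and carbonate dehydratase, a carbon dioxide handling enzyme abundant in leaves, was at 7.03, 3.37 and 10.35 in drought plants 1, 2 and 3, against 10.54, 10.46 and 10.02 in irrigated plants. The 12 probe sets listed for other tissues summed to 10744, 13237 and 18603 in the drought plants, against 15021 to 15870 in the irrigated plants. Of 8 tested, 2 were called lower in plant 3, a lipid transfer protein and a phloem protein, and 0 higher.

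Over 12 arrays, 226 probe sets were higher and 393 lower in the drought plants than in the irrigated plants, of 12856 tested (1.76% and 3.06%). A call needed a 2-fold difference and an adjusted p below 0.05. In all 619 of them plant 3 also lay outside the range of the 3 irrigated plants on the same side, so the requirement removed none. That requirement alone is mild, since plant 3 lay above the irrigated range for 38.1% of all tested probe sets and below it for 37.5%. The fit takes its spread from all 4 groups, and the spread of the other groups is far smaller than that of the drought plants. Without irrigated plant 1, 2 or 3 the count was 72, 81 or 130, and without any 1 RAHS-14 plant it was 200 to 219. Without drought plant 1, 2 or 3 it was 707, 1177 or 5949. With only the 6 Vagad arrays, limma called 0 probe sets (1288 at an unadjusted p under 0.05), and with array weights it also called 0 (1809 at an unadjusted p under 0.05). When data were simulated with the drought plants' own spread, the 12-array fit called more unchanged probe sets than the 619 called here, so a call over 12 arrays is not support on its own. Of the 42 probe sets described below that were called over 12 arrays, 22 kept the call in each fit run with 1 array left out. Another 10 lost it in most of those fits, as stated beside each. Among the 22, phospholipase A 2A, the GRAM domain protein and the ubiquitin-protein ligase exceeded the array median only on the 3 irrigated Vagad arrays. Without any 1 of these arrays they failed the filter and were not tested, so no such fit enters their count. The same held for the mannose-binding lectin, and over 10 arrays for sarcosine oxidase. The remaining 10 are expansin A8, the fringe-related protein, cold, circadian rhythm and RNA binding 2, multiprotein bridging factor, early-responsive to dehydration 4, the first asparaginase, WRKY40, the NAC and F-box proteins, which lost it without 1 or more of the irrigated plants (highest adjusted p = 0.111), and the mannose-binding lectin, which lost it without 1 RAHS-14 drought or irrigated plant (0.0515). The calls over 10 arrays all rest on drought plant 3, which no such fit could leave out. That nearly all of them kept the call with another array left out is therefore not support for them.

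The second fit left out drought plants 1 and 2 and set plant 3 alone against the 3 irrigated plants, on the assumption that a drought plant varies like the plants of the other groups. It called 564 probe sets higher and 729 lower in plant 3, of 12599 tested (4.48% and 5.79%). These calls describe 1 drought plant. Leaving out any 1 of the other 9 arrays gave 1166 to 1515 calls. Among the 564 that were higher, plants 1 and 2 both also lay above the irrigated range for 192, or 34.0%, against 15.8% of all tested probe sets. Among the 729 that were lower, both lay below it for 431, or 59.1%, against 44.4% of all tested. In 137 of those higher and 94 of those lower, neither plant lay on the same side. Plants 1, 2 and 3 are all set against the same 3 irrigated plants, so the excess of these shares over all tested is not independent support. The median log2 difference was -0.71 over the 12856 probe sets tested over 12 arrays, 0.06 over all 24029 with no filter on dim ones, and -0.00 for plant 3.

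Both fits called 144 probe sets higher and 284 lower (1.14% and 2.25% of those tested over 10 arrays), 428 in all. Without irrigated plant 1, 2 or 3 that count was 72, 81 or 129. The other 191 calls of the 12-array fit comprised 172 that were tested and not called for plant 3 and 19 that were not tested. In the 12-array calls plants 1 and 2 both lay further from the irrigated mean than plant 3 did for 173 of 226 higher and 326 of 393 lower probe sets. At least 1 of plants 1 and 2 was at the floor, the lowest level kept, for 181 of the 393. Names were available for 105 of the 619, and 85 of the 428. They come from Arabidopsis top hits for probe sets that the study chose on these arrays, and 56 of the 105 have a suffix for shared probes. The study listed those probe sets as higher in one accession than in the other, and they were called more often than the rest: over 10 arrays 8.58% of the 1026 named and tested were higher in plant 3 and 12.5% lower. Each list below was drawn from them, so its counts are to be read beside these shares and are not independent evidence.

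Among osmolyte enzymes, 1 of 2 probe sets for P5CS2 and both for raffinose synthase were higher in both fits. P5CS2, a pyrroline-carboxylate synthase that makes the precursor of proline, was at 12.13, 11.93 and 12.25 in drought plants 1, 2 and 3, against 10.27, 10.26 and 10.12 in irrigated plants. All 3 drought plants lay above all irrigated plants, and the drought plants differed little among themselves. The mean was 1.89 higher over 12 arrays (SE 0.22, adjusted p = 0.00228), but -0.21 with arrays aligned at their medians, where the median of all tested was -1.83, and plant 3 was 2.04 above the irrigated mean (SE 0.10, adjusted p = 7.55e-06). A second P5CS2 probe set split the drought plants, with 8.58, 3.37 and 9.20 in drought plants 1, 2 and 3, against 6.18, 6.54 and 6.47 in irrigated plants. Plants 1 and 3 were high and plant 2 was at the floor, and it was called for plant 3 (difference 2.80, adjusted p = 2.89e-05) and not over 12 arrays (adjusted p = 0.694).

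Galactinol-sucrose galactosyltransferase, or raffinose synthase, which joins galactose to sucrose, had 2 probe sets that were both called in both fits. The first was at 12.05, 10.81 and 10.14 in drought plants 1, 2 and 3, against 7.60, 7.84 and 8.03 in irrigated plants, and plant 3 differed from the irrigated mean by 2.32 (adjusted p = 5.06e-05). The second was at 10.87, 12.12 and 11.26 in drought plants 1, 2 and 3, against 8.98, 8.94 and 8.98 in irrigated plants, with a plant 3 difference of 2.29 (adjusted p = 5e-05). In both the drought and irrigated plants did not overlap. Of the 12 osmolyte probe sets tested over 10 arrays, 4 were higher in plant 3 and 1 lower, inositol oxygenase, with a list median of -0.14 beside -0.00 over all tested. The trehalose-phosphate synthases, trehalose phosphatase, trehalase and myo-inositol-1-phosphate synthase did not pass.

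Heat shock proteins and chaperones, which hold unfolded proteins in solution, held more calls in plant 3 than any other of the 34 lists. Of 28 tested, 10 were higher and 2 lower (8.58% and 12.5% of all named), and the median difference was 0.25, beside -0.06 over all named. A probe set named heat shock protein (GhiAffx.33882.1.S1_s_at) was at 9.07, 3.74 and 9.58 in drought plants 1, 2 and 3, against 5.53, 5.93 and 5.99 in irrigated plants. Plants 1 and 3 were high and plant 2 was below the irrigated plants. Plant 3 differed by 3.76 (SE 0.19, adjusted p = 7.95e-06). The mitochondrion-localized small heat shock protein, at 4.19, 10.17 and 8.96 in drought plants 1, 2 and 3, against 6.60, 6.23 and 6.67 in irrigated plants, was high in plants 2 and 3 and low in plant 1. Its plant 3 difference was 2.46 (adjusted p = 0.000105). One more heat shock protein (GhiAffx.17865.1.S1_at) had the same pattern, with 4.27, 9.99 and 8.80 in drought plants 1, 2 and 3, against 6.14, 5.89 and 5.57 in irrigated plants. Over 12 arrays only 2 members were called higher and 1 lower, a DnaJ protein, a co-chaperone.

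Among dehydration proteins, early-responsive to dehydration 4, a membrane protein named for its early induction in drying Arabidopsis, was at 9.86, 11.49 and 10.14 in drought plants 1, 2 and 3, against 8.25, 8.27 and 8.68 in irrigated plants. The groups did not overlap, and both fits called it (plant 3 difference 1.74, adjusted p = 0.000143; 12 arrays 2.10, adjusted p = 0.0206). A hydrophobic protein followed plants 1 and 3 but not plant 2, with 8.82, 5.42 and 8.36 in drought plants 1, 2 and 3, against 6.45, 6.53 and 6.60 in irrigated plants. Plant 3 lay above the irrigated range in all 6 dehydration probe sets tested, and in 38.1% of all probe sets tested over 12 arrays.

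Among the named genes called in both fits, the nitrate transporter NTP2 and high mobility group B 3 had the largest rises in plant 3. The nitrate transporter NTP2 was at 11.02, 9.02 and 9.89 in drought plants 1, 2 and 3, against 6.35, 6.33 and 6.53 in irrigated plants, and no drought plant overlapped the irrigated plants. Plant 3 was 3.49 above their mean (SE 0.13, adjusted p = 2.13e-06), and the 12-array difference was 3.57 (SE 0.42, adjusted p = 0.00253). High mobility group B 3, a chromatin protein that bends DNA, was at 9.52, 9.27 and 8.80 in drought plants 1, 2 and 3, against 5.66, 6.41 and 5.33 in irrigated plants. Its plant 3 difference was 2.99 (adjusted p = 0.000642). Expansin A8, which loosens the wall during cell growth, was at 11.73, 10.43 and 11.61 in drought plants 1, 2 and 3, against 9.12, 9.28 and 9.37 in irrigated plants, with plant 3 2.35 above the irrigated mean (adjusted p = 1.19e-05). The RNA-binding protein named cold, circadian rhythm and RNA binding 2 was at 11.10, 11.52 and 8.82 in drought plants 1, 2 and 3, against 6.69, 6.99 and 6.70 in irrigated plants. Plants 1 and 2 lay well above plant 3, and all lay above the irrigated plants.

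Asparaginase, which releases ammonium from the transport amino acid asparagine, was called higher in both fits by 2 probe sets. The first was at 13.82, 13.92 and 12.17 in drought plants 1, 2 and 3, against 10.39, 10.54 and 10.72 in irrigated plants. The second was at 12.36, 12.57 and 12.85 in drought plants 1, 2 and 3, against 11.34, 11.50 and 11.53 in irrigated plants, so that neither overlapped. The plant 3 differences were 1.62 and 1.40 (adjusted p = 9.11e-05 and 4.14e-05), and none of the 5 asparagine synthase probe sets tested was called. Over 12 arrays the second lost its call without any 1 irrigated or RAHS-14 plant (highest adjusted p = 0.145) and was at -0.89 with arrays aligned at their medians. Phenylalanine ammonia-lyase, the entry enzyme of the phenylpropanoid pathway, was at 9.20, 10.45 and 7.17 in drought plants 1, 2 and 3, against 5.75, 5.06 and 5.51 in irrigated plants in 1 of its probe sets. It passed in both fits (plant 3 difference 1.73, adjusted p = 0.0179), with the groups apart, but lost the 12-array call without any 1 irrigated or RAHS-14 plant (highest adjusted p = 0.127).

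Further rises called in both fits carry names that tell less of their role. An integral membrane family protein was at 9.83, 6.57 and 7.47 in drought plants 1, 2 and 3, against 5.06, 5.34 and 4.96 in irrigated plants. A fringe-related protein was at 9.66, 11.06 and 9.57 in drought plants 1, 2 and 3, against 7.37, 7.47 and 7.64 in irrigated plants. Multiprotein bridging factor, a transcriptional coactivator, was at 9.70, 8.50 and 7.99 in drought plants 1, 2 and 3, against 5.71, 6.04 and 6.42 in irrigated plants. Their plant 3 differences were 2.35, 2.08 and 1.93. In each the drought plants all lay above the irrigated plants. The integral membrane protein lost its 12-array call without any 1 irrigated or RAHS-14 plant (highest adjusted p = 0.171).

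Several defence proteins were far lower in the drought plants. Osmotin, an antifungal protein of the thaumatin family that also accumulates under osmotic stress, was at 9.29, 7.09 and 7.30 in drought plants 1, 2 and 3, against 12.88, 12.98 and 12.47 in irrigated plants. All 3 drought plants were far below the irrigated plants, with plant 3 5.48 on the log2 scale lower than their mean (SE 0.19, adjusted p = 2.1e-06). Over 12 arrays the difference was -4.88 (SE 0.50, adjusted p = 0.00129). Chitinase, which cuts the fungal wall polymer chitin, was at 5.85, 7.88 and 8.48 in drought plants 1, 2 and 3, against 11.80, 11.95 and 11.89 in irrigated plants. A pathogenesis-related chitin-binding protein was at 5.92, 7.71 and 8.86 in drought plants 1, 2 and 3, against 11.80, 11.77 and 11.88 in irrigated plants. Their plant 3 differences were -3.40 and -2.96 (adjusted p = 3.24e-06 and 2.1e-06). Of 16 defence probe sets tested, 7 were lower and 2 higher in plant 3, and 3 were lower in both fits, these 3. An osmotin-like protein on the same list went the other way without passing, at 12.56 in plant 3, against 12.02, 11.94 and 12.17 in irrigated plants.

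**Figure D2:**
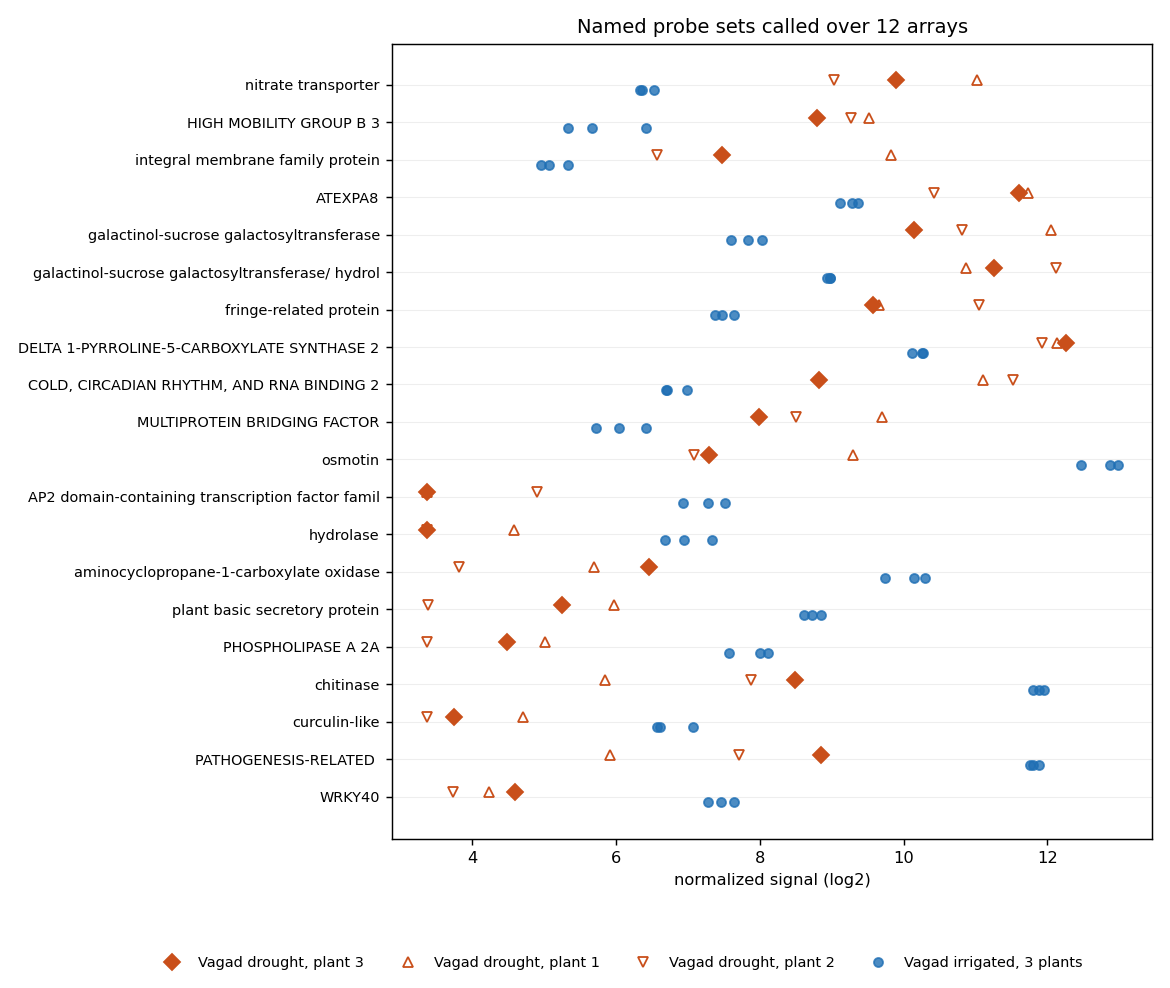
Normalized signal on the log2 scale for the 20 named genes called over 12 arrays with the largest plant 3 difference, 1 probe set a name, 10 higher above and 10 lower below. Diamonds are drought plant 3, open triangles drought plants 1 and 2, and circles the 3 irrigated plants. In every row all 3 drought plants lie on 1 side of the irrigated plants, a pattern that the calls required in part. It holds for normalized values. In the deposited signals drought plant 1 lay above the irrigated plants for the mannose-binding lectin, and drought plant 2 did so for the AP2 domain factor. For phospholipase A 2A and the hydrolase drought plant 1 lay inside their range.

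An ethylene enzyme and several transcription factors of the AP2/ERF list were lower. Aminocyclopropane-1-carboxylate oxidase, which makes ethylene in the final step, was at 5.69, 3.81 and 6.45 in drought plants 1, 2 and 3, against 10.15, 10.30 and 9.74 in irrigated plants, and plant 3 differed by -3.61 (SE 0.22, adjusted p = 2.16e-05). An AP2 domain factor was at 3.37, 4.90 and 3.37 in drought plants 1, 2 and 3, against 7.28, 6.93 and 7.52 in irrigated plants. Plants 1 and 3 were at the floor of 3.37, so that its difference of -3.88 is limited by the floor. An ethylene responsive element binding factor was at 4.15, 3.37 and 7.60 in drought plants 1, 2 and 3, against 9.37, 9.48 and 9.27 in irrigated plants. Here plants 1 and 2 were at or near the floor while plant 3 fell short of the irrigated plants by less (difference -1.77, adjusted p = 0.000119). Its 12-array call was lost without any 1 irrigated or RAHS-14 plant (highest adjusted p = 0.116). Of 13 AP2/ERF factors tested, 5 were lower and 0 higher in plant 3, 4 of them in both fits, and the list median was -0.76. Of 11 ethylene genes, 3 were lower and 1 higher in plant 3. The ethylene receptor ETR2 and the signalling genes EIN3 and EIN2 did not pass in plant 3.

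WRKY factors, regulators of defence and stress genes, moved both ways. WRKY40 was at 4.23, 3.73 and 4.59 in drought plants 1, 2 and 3, against 7.46, 7.27 and 7.64 in irrigated plants. WRKY51 was at 4.69, 5.02 and 4.77 in drought plants 1, 2 and 3, against 7.33, 7.37 and 7.42 in irrigated plants. The groups did not overlap for either, and the plant 3 differences were -2.87 and -2.60 (adjusted p = 0.0101 and 0.0016). Of 14 tested, 3 were lower in plant 3, including a second WRKY40 probe set, and 1 was higher, for WRKY70. WRKY48 was higher over 12 arrays alone.

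Of 31 lipid genes tested, 7 were lower and 3 higher in plant 3. Phospholipase A 2A, which frees fatty acids from membrane lipids, was at 5.0, 3.37 and 4.48 in drought plants 1, 2 and 3, against 8.00, 7.58 and 8.12 in irrigated plants, a plant 3 difference of -3.42 (adjusted p = 4.16e-05). A lipoxygenase, which oxidises fatty acids on the path to jasmonate, was at 8.25, 9.69 and 9.50 in drought plants 1, 2 and 3, against 10.70, 10.72 and 10.86 in irrigated plants. TIFY10B, a repressor of jasmonate response, was at 3.37, 3.83 and 10.10 in drought plants 1, 2 and 3, against 11.45, 11.52 and 11.58 in irrigated plants, where plants 1 and 2 were near the floor and plant 3 differed by only -1.41 (adjusted p = 3.4e-05). Of 5 jasmonate probe sets tested, 2 were lower in both fits and 0 higher, the lipoxygenase and TIFY10B. Their 12-array calls were lost without any 1 irrigated or RAHS-14 plant (highest adjusted p = 0.148 and 0.167), and that of TIFY10B also without drought plant 1 or 2. The glutathione S-transferase of the tau class, a detoxifying enzyme, was at 3.37, 3.37 and 3.82 in drought plants 1, 2 and 3, against 6.24, 6.74 and 6.38 in irrigated plants. Gibberellin 3-beta-dioxygenase, which makes active gibberellin, was at 3.37, 4.15 and 4.32 in drought plants 1, 2 and 3, against 6.43, 6.30 and 7.04 in irrigated plants. Their plant 3 differences were -2.63 and -2.27.

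The remaining large falls began with a pair of hydrolases. The first was at 4.58, 3.37 and 3.37 in drought plants 1, 2 and 3, against 6.69, 6.94 and 7.33 in irrigated plants. The second was at 5.33, 8.72 and 6.75 in drought plants 1, 2 and 3, against 9.97, 10.05 and 10.40 in irrigated plants. Neither overlapped the irrigated plants on the normalized scale. In the deposited signals the first lay inside the irrigated range in drought plant 1, at 142 against 98.4, 119 and 151. The second lost its 12-array call without any 1 irrigated or RAHS-14 plant (highest adjusted p = 0.136). A plant basic secretory protein was at 5.98, 3.38 and 5.24 in drought plants 1, 2 and 3, against 8.62, 8.72 and 8.85 in irrigated plants. A mannose-binding lectin, a sugar-binding protein, was at 4.70, 3.37 and 3.74 in drought plants 1, 2 and 3, against 7.07, 6.61 and 6.57 in irrigated plants. In both all drought plants lay below all irrigated plants on the normalized scale. In the deposited signals the lectin in drought plant 1 was at 164, above the 132, 93.6 and 85.2 of the irrigated plants. An F-box protein, part of a complex that marks proteins for breakdown, was at 4.97, 3.37 and 4.58 in drought plants 1, 2 and 3, against 7.52, 6.87 and 6.90 in irrigated plants. A ubiquitin-protein ligase was at 3.37, 3.37 and 4.99 in drought plants 1, 2 and 3, against 6.83, 6.79 and 6.87 in irrigated plants. Of 27 probe sets for ubiquitin and F-box proteins tested, 5 were lower and 3 higher in plant 3.

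The largest differences called in both fits belonged to probe sets with no name. Probe set Ghi.5773.1.S1_at was at 4.60, 7.93 and 4.93 in drought plants 1, 2 and 3, against 12.71, 12.69 and 12.77 in irrigated plants, with plant 3 7.80 lower on the log2 scale (SE 0.18, adjusted p = 2.95e-07). Ghi.10826.1.S1_at was at 3.37, 6.68 and 5.35 in drought plants 1, 2 and 3, against 11.16, 11.20 and 11.18 in irrigated plants. Among those that were higher, Ghi.8370.1.S1_s_at was at 9.44, 9.04 and 10.56 in drought plants 1, 2 and 3, against 6.35, 6.18 and 6.20 in irrigated plants. Ghi.6874.1.A1_s_at was at 12.11, 11.53 and 12.54 in drought plants 1, 2 and 3, against 8.47, 8.42 and 8.70 in irrigated plants. In all 4 the drought and irrigated plants did not overlap, which here and for the genes above is a description of normalized values. Plants 1 and 2 both lay below the irrigated range for 44.4% and above it for 15.8% of all probe sets tested over 10 arrays. The share of all tested with all 3 drought plants on 1 side was not counted.

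For a further group of named genes plant 3 was called over 10 arrays and the 12-array fit gave no call, so these calls rest on 1 plant. A gibberellin-regulated family protein was at 9.12, 4.38 and 7.19 in drought plants 1, 2 and 3, against 3.37, 3.75 and 3.37 in irrigated plants, and the plant 3 difference was 3.69 (adjusted p = 0.000101, against 0.0588 over 12 arrays). A glucose-6-phosphate transporter, which carries sugar phosphate into plastids, was at 7.39, 4.53 and 7.19 in drought plants 1, 2 and 3, against 3.50, 4.53 and 3.96 in irrigated plants, with plant 2 level with the highest irrigated plant. An integral membrane family protein was at 3.37, 9.92 and 7.51 in drought plants 1, 2 and 3, against 3.77, 4.55 and 4.65 in irrigated plants, high in plants 2 and 3. A ferric iron binding protein was at 3.37, 3.37 and 7.56 in drought plants 1, 2 and 3, against 5.36, 5.60 and 4.74 in irrigated plants. A calcium antiporter, which moves calcium into the vacuole, was at 3.37, 10.38 and 9.28 in drought plants 1, 2 and 3, against 7.22, 7.10 and 6.92 in irrigated plants. Plant 3 alone was high for the first of these, and plants 2 and 3 for the second.

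Other genes were called lower for plant 3 in the same fit alone. A bile acid:sodium symporter was at 7.68, 9.93 and 4.01 in drought plants 1, 2 and 3, against 6.79, 6.99 and 7.51 in irrigated plants. A sarcosine oxidase was at 10.32, 9.83 and 3.88 in drought plants 1, 2 and 3, against 6.67, 6.78 and 6.65 in irrigated plants. A lipid transfer protein was at 8.85, 9.70 and 3.37 in drought plants 1, 2 and 3, against 6.13, 6.34 and 5.84 in irrigated plants. In these 3 plants 1 and 2 lay above every irrigated plant, opposite to plant 3. Senescence-associated gene 101, a carboxylesterase of senescing leaves, was at 3.37, 8.04 and 3.37 in drought plants 1, 2 and 3, against 6.02, 6.35 and 6.02 in irrigated plants, with plants 1 and 3 at the floor. A trypsin and protease inhibitor was at 8.09, 9.25 and 6.34 in drought plants 1, 2 and 3, against 8.87, 8.87 and 9.07 in irrigated plants, with plants 1 and 3 low and plant 2 above the irrigated plants. Of 6 senescence probe sets tested, all 6 lay below the irrigated range in plant 3, as did 37.5% of all probe sets tested over 12 arrays. Over 12 arrays 0 of the 6 were called.

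**Figure D3:**
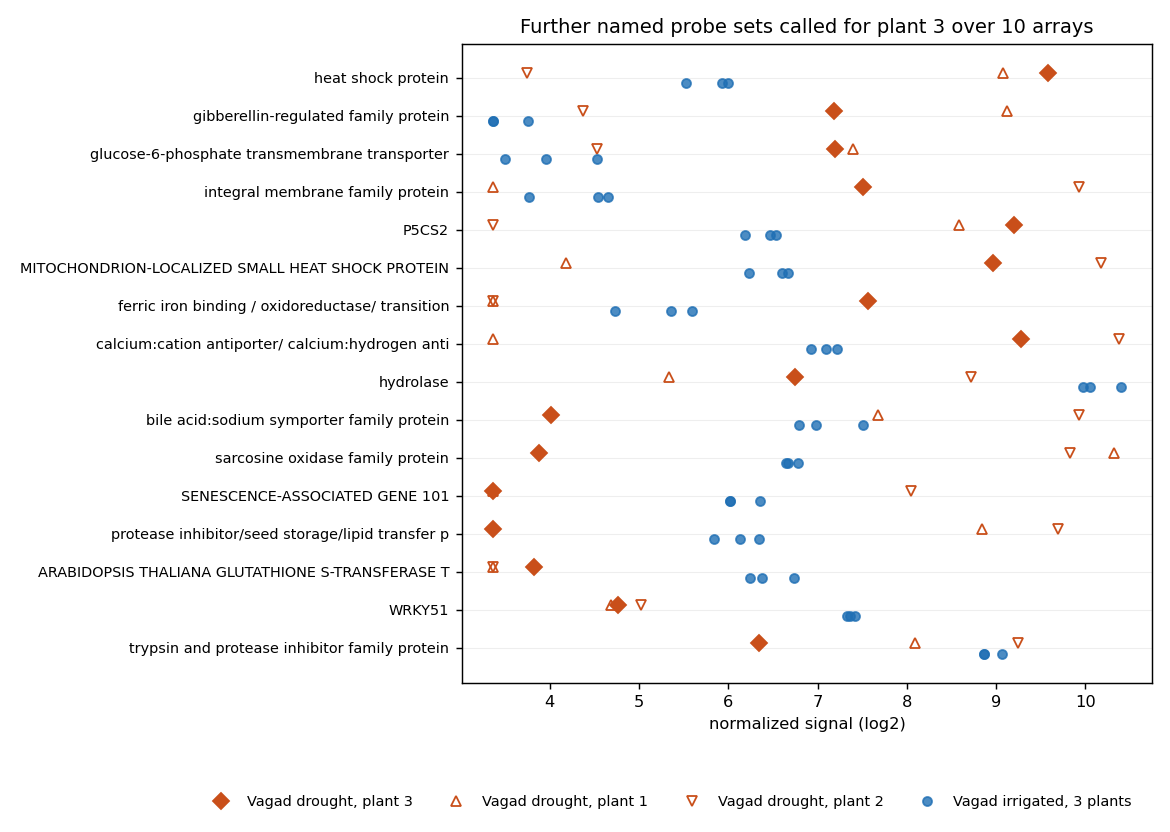
Normalized signal on the log2 scale for 16 further named probe sets called for drought plant 3 over 10 arrays, 8 higher above and 8 lower below. Diamonds are drought plant 3, open triangles drought plants 1 and 2, and circles the 3 irrigated plants. In most rows the triangles lie on both sides of the circles or opposite to the diamond.

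Of the aquaporins, or water channels, 2 were called in plant 3, both in the tonoplast. The tonoplast channel TIP2;2 was at 5.46, 9.14 and 7.97 in drought plants 1, 2 and 3, against 8.99, 9.13 and 9.33 in irrigated plants. A gamma tonoplast channel was at 12.58, 11.89 and 11.05 in drought plants 1, 2 and 3, against 12.15, 12.07 and 12.29 in irrigated plants. Both were lower in plant 3, with differences of -1.18 and -1.12 (adjusted p = 0.00259 and 0.000206), and neither passed over 12 arrays. Of 12 plasma membrane and other aquaporins tested, 0 passed in plant 3. The small and basic intrinsic protein 1A passed over 12 arrays alone, at 12.89, 12.77 and 10.20 in drought plants 1, 2 and 3, against 9.48, 9.42 and 9.66 in irrigated plants, where plants 1 and 2 were high and plant 3 slightly so. Its 12-array difference was 2.43 (adjusted p = 0.0486), and the call held in 1 of 12 fits with an array left out. Of the 12 abscisic acid signalling genes tested, 1 passed, an ABA-responsive GRAM domain protein that was lower at 3.37, 3.48 and 5.04 in drought plants 1, 2 and 3, against 6.31, 6.25 and 6.33 in irrigated plants. The factor ABF4, the type 2C phosphatases and the SNF1-related kinase subunits did not pass. Of 19 flavonoid, 9 photosynthesis and 7 starch and sugar probe sets tested, 0 passed in either fit.

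Protein kinases and phosphatases held 8 higher and 3 lower of 61 tested in plant 3, and transporters 4 higher and 7 lower of 59, beside 8.58% higher and 12.5% lower among all named. A serine/threonine kinase was at 8.61, 7.00 and 8.85 in drought plants 1, 2 and 3, against 6.86, 6.99 and 6.99 in irrigated plants. A serine/threonine phosphatase was at 9.77, 4.57 and 9.73 in drought plants 1, 2 and 3, against 7.98, 7.99 and 8.16 in irrigated plants. The kinase was high in plants 1 and 3 and at the irrigated level in plant 2, and the phosphatase was far below it in plant 2. Cell wall genes were split, with 4 higher and 6 lower of 53. A hydroxyproline-rich glycoprotein, a structural wall protein, was at 3.37, 8.40 and 8.04 in drought plants 1, 2 and 3, against 5.66, 6.38 and 6.51 in irrigated plants. Auxin response genes had 3 lower and 0 higher of 17. One was at 8.80, 4.51 and 7.74 in drought plants 1, 2 and 3, against 9.33, 9.41 and 10.11 in irrigated plants. Another was at 9.72, 9.52 and 6.82 in drought plants 1, 2 and 3, against 8.61, 8.54 and 8.66 in irrigated plants. In the second of these probe sets plants 1 and 2 lay above the irrigated plants.

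Single members of other lists complete the account. Cinnamyl-alcohol dehydrogenase, a lignin enzyme, was at 9.61, 10.89 and 11.30 in drought plants 1, 2 and 3, against 10.13, 10.22 and 9.99 in irrigated plants, and was high in plants 2 and 3 alone. A glutaredoxin, a small redox protein, was at 3.37, 3.53 and 8.58 in drought plants 1, 2 and 3, against 10.39, 10.23 and 10.37 in irrigated plants. All 3 drought plants were below the irrigated plants, plants 1 and 2 near the floor. Its 12-array call held in 2 of 12 fits with an array left out (highest adjusted p = 0.141). A myb factor was at 9.43, 4.73 and 7.24 in drought plants 1, 2 and 3, against 8.62, 8.64 and 8.10 in irrigated plants. A NAC domain factor was at 3.62, 4.03 and 5.06 in drought plants 1, 2 and 3, against 6.05, 6.42 and 6.81 in irrigated plants. The drought plants lay on both sides of the irrigated plants for the myb factor and below them for the NAC factor. Serine O-acetyltransferase, an enzyme of cysteine synthesis, was at 7.53, 3.37 and 8.54 in drought plants 1, 2 and 3, against 9.72, 9.64 and 9.94 in irrigated plants. A probe set named methionine overaccumulation was at 10.30, 3.48 and 9.23 in drought plants 1, 2 and 3, against 10.63, 10.67 and 9.72 in irrigated plants. For the acetyltransferase all drought plants were lower, while for the second plant 1 lay within the irrigated range, and its call for plant 3 was kept in 7 of 9 fits with an array left out.

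One 60S ribosomal protein was at 8.85, 3.37 and 8.47 in drought plants 1, 2 and 3, against 6.66, 6.92 and 7.11 in irrigated plants and passed for plant 3. Another was at 8.30, 8.30 and 6.33 in drought plants 1, 2 and 3, against 5.23, 5.39 and 4.94 in irrigated plants. It was called over 12 arrays, in 0 of 9 fits with an array left out (lowest adjusted p = 0.0515), and was too dim to be tested over 10. Ribosomal proteins are parts of the translation machinery, and no other of the 11 probe sets for ribosome and translation tested over 10 arrays was called for plant 3. A second senescence-associated probe set was at 8.49, 3.37 and 6.02 in drought plants 1, 2 and 3, against 8.18, 8.08 and 7.30 in irrigated plants. The phloem protein was at 9.67, 4.22 and 8.17 in drought plants 1, 2 and 3, against 9.08, 9.11 and 9.42 in irrigated plants. In both, plants 2 and 3 were low and plant 1 lay above the irrigated plants. The phloem protein was called in 8 of 9 fits with an array left out. The annotation UDP-glycosyltransferase/sucrose synthase, which shares its name with a gene of the study's quantitative assay, was at 5.05, 3.37 and 9.31 in drought plants 1, 2 and 3, against 9.68, 9.84 and 9.76 in irrigated plants and passed in neither fit (adjusted p = 0.0689 over 12 arrays and 0.299 for plant 3). Plants 1 and 2 were far below the irrigated plants and plant 3 slightly so.

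The Vagad response was set against that of RAHS-14, in which drought and irrigated plants were compared over the same 10 arrays and which shares no plants with it. For RAHS-14, 436 probe sets were higher and 582 lower (3.46% and 4.62% of 12599). Among the named probe sets, from which the lists were drawn, these shares were 9.84% and 10%. Of the 564 that were higher in Vagad plant 3, 192 (34.0%) were also higher in RAHS-14, which is 44.0% of the RAHS-14 calls. Of the 729 lower, 239 (32.8%) were also lower, or 41.1% of the RAHS-14 calls. The difference of the 2 responses passed the test for 551 probe sets where the Vagad plant 3 response was the higher and 554 where it was the lower (4.37% and 4.4% of 12599). Over 12 arrays the same test called 6 and 12.

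Osmotin, chitinase and the chitin-binding protein were lower in Vagad plant 3 and were not called in RAHS-14. Their plant 3 differences of -5.48, -3.40 and -2.96 stood against 0.61, 0.31 and -0.57 in RAHS-14, and the responses differed by -6.09, -3.71 and -2.39 (adjusted p = 3.62e-06, 6.97e-06 and 1.99e-05). The accessions already differed when irrigated, with an osmotin mean of 12.78 for Vagad, against 8.34 for RAHS-14. For chitinase these means were 11.88 against 8.78, and for the chitin-binding protein 11.82 against 9.51. Vagad plant 3, at 7.30, 8.48 and 8.86, lay below every irrigated RAHS-14 plant. Irrigated levels enter the difference of the responses, and their part in it was not tested. Phospholipase A 2A was at -3.42 in Vagad plant 3 and -0.31 in RAHS-14, a difference of -3.11. It passed the filter only through the irrigated Vagad plants. The asparaginases were 1.62 and 1.40 in Vagad plant 3 and 0.17 and 0.15 in RAHS-14 (adjusted p = 0.00105 and 0.000485). The nitrate transporter was 3.49 in Vagad plant 3 and 0.79 in RAHS-14 (adjusted p = 3.42e-05). Raffinose synthase rose in both, by 2.32 and 2.29 in Vagad plant 3 and by 1.18 and 1.03 in RAHS-14, and the difference passed for both probe sets (adjusted p = 0.00808 and 0.00476).

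Other genes gave no called difference between the accessions. P5CS2 was 2.04 higher in Vagad plant 3 and 2.50 higher in RAHS-14. The difference of -0.46 (SE 0.12) met the required adjusted p and missed only the required fold. The small heat shock protein of mitochondria was 2.46 and 2.45, a difference of 0.01 (SE 0.27). Heat shock lists held 10 higher of 28 in each accession, and 1 member differed upward and 1 downward. Multiprotein bridging factor and WRKY51 moved the same way in both without passing the test of the difference. Expansin A8 was also higher in both, and its difference of 0.82 (SE 0.16) had an adjusted p of 0.00911 but missed the required fold.

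Flavonoid and anthocyanin genes, which make pigments and tannins, had more called differences between the accessions than any other list. Of 19 tested, 0 were called in Vagad plant 3, with a median difference of 0.08, and 15 were higher in RAHS-14, with a median of 1.52. The responses differed for 13, all with Vagad lower (median difference -1.19 beside -0.01 over all tested and -0.02 over all named). Among all named, 8.97% differed with Vagad lower. The study chose these probe sets on the same arrays for a difference between the accessions, so the count is a description. In RAHS-14, 9.84% of all named were higher. Irrigated levels of the accessions enter the difference of the responses, and their part in it was not tested. The 19 probe sets include several for naringenin-chalcone synthase that may bind related transcripts. A naringenin 3-dioxygenase chosen after its values were seen (Gra.2794.2.S1_s_at) was at 7.11, 10.88 and 8.87 in drought plants 1, 2 and 3, against 9.01, 9.20 and 9.37 in irrigated plants, and its response was -0.32 in Vagad plant 3 and 3.38 in RAHS-14 (adjusted p = 5.11e-05 for the difference). Phenylpropanoid genes had 3 higher of 21 in Vagad plant 3 and 10 in RAHS-14, and the responses differed for 5. Of 5 tonoplast channels, 2 were lower in Vagad plant 3 and 4 in RAHS-14, with 3 differing, TIP2;2 by 3.22 (adjusted p = 9.94e-05).

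**Figure D4:**
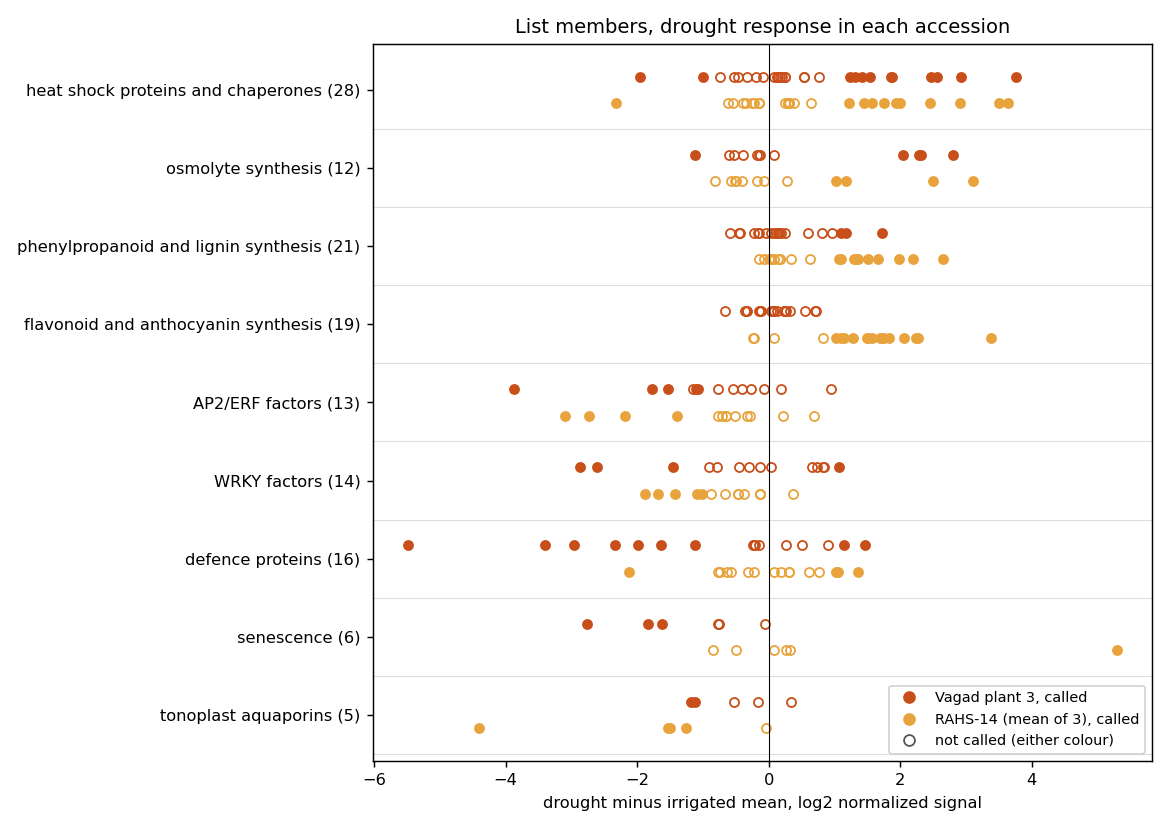
Drought minus irrigated difference on the log2 scale for the tested members of 9 lists, with the number tested in brackets. Dark points are Vagad plant 3 and light points RAHS-14, filled where called over 10 arrays. The flavonoid members are all unfilled for Vagad plant 3, against 15 filled for RAHS-14, while heat shock members are spread alike in both.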

How the data were processed

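The intensity values were deposited by the authors as MAS5 signals on a linear scale, with every array scaled to about the same trimmed mean. They hold no detection calls, and the version of MAS5 is not given in the sources used here. The methods analysed RMA values with a t-test, and the values here are not RMA. The table holds 24132 probe sets, 103 of them controls, which were left out of the tests. No sequencing depth applies, and the number of arrays limits the precision.

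Arrays were quantile normalized to the mean distribution of the 10 arrays other than Vagad drought plants 1 and 2, signals below its 20th percentile were set to that floor (10.3, or 3.37 on the log2 scale), and values were put on the log2 scale. A probe set was tested where it exceeded the median of its own array on 3 or more arrays. The 4 group means were fitted with limma 3.58.1 (R 4.3.3) over 12 arrays, and over 10 arrays without drought plants 1 and 2. Adjusted p-values are limma's with Benjamini-Hochberg adjustment over all probe sets tested, and a call needed a 2-fold difference with an adjusted p below 0.05. Nothing says how plants were randomised, so p-values refer only to these plants. Over 10 arrays the Vagad drought group held 1 plant, so no spread between Vagad drought plants entered the p-values. Their spread came from the irrigated Vagad, RAHS-14 drought and RAHS-14 irrigated plants (median SD 0.148, 0.108 and 0.118). Among the Vagad drought plants the median SD was 1.62. The fits were tested on simulated data. With equal spread they called almost no unchanged probe sets, but with the drought plants' own spread the 12-array fit called more unchanged ones than it called here in all. The 10-array fit was simulated only with equal spread. Its assumption that plant 3 varies like the plants of the other groups was therefore not tested.

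Names are Arabidopsis top hits from the study's supplementary tables, which cover 1712 probe sets (1257 named). A platform table gave 756 probe sets locus numbers and no product, and was not used. The 34 lists were drawn from those names by keyword. Named in the text are the 10 higher and 10 lower with the largest plant 3 difference among named 12-array calls (1 probe set a name), 8 and 8 more among 10-array calls, up to 2 called members of each list, the quantitative-assay gene, and 2 higher and 2 lower without a name. Members, lists and the reference for normalization were chosen with earlier results of these data known. Alternatives were other normalizations, floors, filters, priors, thresholds, array weights, a replicate block, the methods' t-test, fewer arrays and each array left out in turn. Plots used matplotlib 3.10.9 (Python 3.11.15).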

Additional observations from a re-analysis of the deposited data

Results flagged for a closer look

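The drought response of Vagad plant 3 minus that of RAHS-14 passed the test over 10 arrays for 34 of the 72 named probe sets, 16 with the Vagad response higher and 18 with it lower. Over all probe sets tested 4.37% were higher and 4.4% lower, and the 72 were mostly picked for a large plant 3 difference, which raises their count. All values here are log2 differences of the 2 responses, and they rest on 1 Vagad drought plant. Higher and lower refer to that difference and not to the direction in Vagad. TIP2;2, the glutaredoxin and the auxin-responsive protein, listed as higher, fell in plant 3. The glucose-6-phosphate transporter, listed as lower, rose by 3.19 in plant 3 and by 5.31 in RAHS-14. Also listed as lower are phospholipase A 2A, the mannose-binding lectin, sarcosine oxidase and the ubiquitin-protein ligase. They passed the filter only through the irrigated Vagad plants, which favours a lower Vagad response, so they add no support to the count. The Vagad response was higher for the nitrate transporter NTP2 (2.70), high mobility group B 3 (2.40), the 2 raffinose synthase probe sets (1.14 and 1.26), the fringe-related protein (1.12), cold, circadian rhythm and RNA binding 2 (1.79), the gibberellin-regulated protein (2.24), the calcium antiporter (1.07), the tonoplast channel TIP2;2 (3.22) and the hydrophobic protein (1.32). It was also higher for an auxin-responsive protein (1.05), the hydroxyproline-rich glycoprotein (2.78), the glutaredoxin (1.82), the 2 asparaginases (1.45 and 1.25) and a 60S ribosomal protein (1.296).

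The Vagad response was lower for osmotin (-6.09), chitinase (-3.71), the chitin-binding protein (-2.39), aminocyclopropane-1-carboxylate oxidase (-2.35), the basic secretory protein (-1.64), phospholipase A 2A (-3.11), the mannose-binding lectin (-2.87), TIFY10B (-1.63) and the lipoxygenase (-1.23). It was also lower for the glucose-6-phosphate transporter (-2.11), sarcosine oxidase (-2.47), senescence-associated gene 101 (-1.92), a second senescence-associated protein (-2.15), the glutathione S-transferase (-1.81), the F-box protein (-1.15), the ubiquitin-protein ligase (-1.94), and the unnamed probe sets Ghi.5773.1.S1_at (-4.52) and Ghi.10826.1.S1_at (-6.93). The same test passed for 13 of 19 flavonoid members, all with the Vagad response lower.

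The tag controls, outside the cotton measurement, had median signals of 89.0 and 96.7 on Vagad drought plants 1 and 2, above the 1.36 to 7.43 of the other 10 arrays.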

How the results depend on the processing

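The count called for Vagad plant 3 over 10 arrays (1293) and the count of response differences between the accessions (1105) stayed within 1.5 times under every alternative run except the thresholds. With no minimum fold they were 3747 and 2313, and at an adjusted p under 0.01 the response differences were 709. Leaving out 1 array gave 1166 to 1515 and 961 to 1365. The 12-array count of 619 moved far more. It was 7619 with arrays aligned at their medians (129 higher, 7490 lower, median of all tested -1.83), 1555 with signals as deposited (815 higher, 740 lower, median -0.23), 341 with no floor, 121 at an adjusted p under 0.01 and 0 with array weights or only the 6 Vagad arrays. The methods' t-test called 768 at an unadjusted p and 7 after Benjamini-Hochberg. With the plant 3 requirement it was 5471 and 1528 in the first 2 of these settings, and 341, 121, 0, 0, 768 and 7 in the others. Leaving out 1 array gave 72 to 5949, and with the requirement, which could not be applied without drought plant 3, 72 to 1177. The 428 called in both fits became 940 with aligned medians (46 higher, 894 lower) and 120 at an adjusted p under 0.01, and leaving out 1 array gave 72 to 215. The cause of these shifts was not tested. Replicate numbers gave no sign of pairing the plants: of 18 same-numbered pairs of arrays from different groups, 0 had residuals correlated over 0.1 (range -0.0864 to 0.0592). With 3 arrays a group, such correlations cannot exclude a pairing. With the replicate number as a block, 218 were called over 12 arrays, 218 with the requirement, 217 in both fits and 1181 for plant 3. With aligned medians 2 named genes reversed over 12 arrays, P5CS2 (-0.21) and an asparaginase (-0.89). Array data carry no read depth, and levels at the floor have no order. The floor-free fits over 10 arrays and every alternative for the 428 were chosen after seeing the data.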
